A study of Homo sapiens with 6 samples.

Results

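The genes described here encode the protein components of the cytosolic ribosome, as far as a focused glycogene array measures them. A probe set was taken as a member when the RefSeq accession in its identifier belonged to a gene with a ribosomal protein symbol (RPL, RPS, RPLP or RPSA, without the kinases named RPS6K). This gave 51 probe sets for 41 genes, out of 1259 probe sets and 927 named genes on the array, and each gene was represented by its probe set with the highest mean. Of the members 30 belong to the large subunit, the stalk protein RPLP1 included, and 11 to the small subunit. RefSeq lists 92 protein-coding symbols of this form, so the array holds a part of the family. The samples were HCT116 cells, a human colorectal cancer line with microsatellite instability, stably transfected for expression controlled by doxycycline. The sample titles name wild-type ACVR2, an activin receptor gene, whereas the source field gives AIM2, TGFBR2 and ACVR2 side by side. All 6 samples received activin A. Doxycycline was added in 3 of them (+DOX) and left out in the other 3 (-DOX). The labels give neither dose nor duration, do not say whether the line is 1 clone, and do not state that replicates were separate cultures, so the spread behind the p-values may be technical.

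Ribosomes consist of a small subunit, which decodes the messenger RNA, and a large subunit, which joins amino acids and holds the tunnel through which the new chain leaves. Their proteins are needed in nearly equal numbers, and the messenger RNAs that encode them are among the most abundant in growing cells. Most of these messengers begin with a C followed by a run of C and U bases, the terminal oligopyrimidine (TOP) tract, through which the mTOR pathway and the protein LARP1 adjust their translation together. Ribosomal protein genes also have very many processed pseudogenes, so a probe for such a gene can pick up near-identical sequences.

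RefSeq start sites on GRCh38.p14 show this beginning for many of the members, though not all, and are given here for that reason. Of the 41 members, 33 had an entry in the RefSeq promoter table; among those without one were RPL8, RPL23, RPL30 and RPL37. In 24 of the 33 genes (72.7%) an annotated start was a C followed by at least 4 bases that are C or T, read along the gene's strand, against 5.14% of the 27305 genes in the table. Each line below holds 30 bases, 15 before the annotated start and 15 from it on, written 5′ to 3′ along the gene's strand, with the tract in capitals.
RPL38, chr17:74203663-74203692, plus strand: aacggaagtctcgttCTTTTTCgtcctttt
RPL34, chr4:108620561-108620590, plus strand: aaaggcttttttcttCCTCTTCCggggacg
RPL24, chr3:101686704-101686733, minus strand: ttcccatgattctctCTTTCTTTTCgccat
RPL41, chr12:56116618-56116647, plus strand: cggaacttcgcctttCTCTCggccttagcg
RPL27A, chr11:8682777-8682806, plus strand: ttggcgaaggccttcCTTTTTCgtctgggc
RPL28, chr19:55385917-55385946, plus strand: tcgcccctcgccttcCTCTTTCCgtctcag
RPLP1, chr15:69452803-69452832, plus strand: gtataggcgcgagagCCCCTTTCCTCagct
RPS6, chr9:19380222-19380251, minus strand: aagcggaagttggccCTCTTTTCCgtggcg
RPS18, chr6:33272060-33272089, plus strand: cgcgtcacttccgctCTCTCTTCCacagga
RPS25, chr11:119018329-119018358, minus strand: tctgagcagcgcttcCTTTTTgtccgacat
RPL4, chr15:66504841-66504870, minus strand: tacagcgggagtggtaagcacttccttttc
RPL17, chr18:49492451-49492480, minus strand: cctctttccctaagcagcctgaggtgagtg
The windows of RPL4 and RPL17 have no tract at the annotated start and are shown for contrast. Both hold a run of C and T a few bases away, after the start in RPL4 and before it in RPL17. Whether a gene counts as having a tract thus depends on where its start is annotated. Short motifs were also searched on both strands of the 300-base windows around the starts. CCGGAAG, a core that ETS-family factors bind, was present for 14 of the 33 genes (42.4%) and 12.2% of all genes. AAGATGGC, part of the YY1 motif, was present for 4 (12.1%) and 3.52%, and TATAAA, a core promoter element, for 3 (9.09%) and 14.0%. These matches are descriptions of the letters in the windows.

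The array medians of all probe sets lay between 7.61 and 7.65 log2 units. One array differed from the rest. Over all probe sets, replicate 3 without doxycycline correlated with the 5 other arrays at 0.982 to 0.991, and these 5 correlated among themselves at 0.995 to 0.999. Results that rest on it are given with and without it. ACVR2A, the gene named in the titles, read 8.15, 8.02 and 8.08 with doxycycline and 8.25, 8.07 and 8.70 without for replicates 1, 2 and 3, so the groups overlapped and the highest value was on that array. The probes may lie outside the introduced sequence, in which case this gene says nothing about the labels. Of markers of colon epithelium only MUC1, with a mean of 8.74, and LGALS4, with 7.30, were matched, and the 8 matched markers of leukocytes, endothelium and fibroblasts had means from 6.0 to 7.9, so these data check the cell type only weakly.

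Most members gave signals near the top of the array. The mean over the 6 arrays was above 13 log2 units for 31 members, between 12 and 13 for 3 and below 11 for 7, and of the 50 brightest probe sets 36 belonged to members. The highest mean was that of RPL41, a very short basic protein at the subunit interface. RPL41 read 14.51, 14.50 and 14.50 with doxycycline and 14.53, 14.50 and 14.33 without. The lowest was RPL37, a zinc-binding protein of the large subunit, which read 7.23, 7.28 and 7.19 with doxycycline and 7.16, 7.06 and 6.97 without. For RPL37 the 3 arrays with doxycycline lay above the 3 without, by a narrow margin. The members below 11 were all from the large subunit: RPL31 and RPL28, with means of 10.47 and 10.01, RPL32, RPL21 and RPL34, with means from 8.60 to 8.86, and RPL27A and RPL37, with 7.60 and 7.15. Probe sets differ in how well they bind their target, so these values do not rank the genes by transcript amount. No member had a mean in the lowest quartile of all probe sets, which ended at 6.88. RPL27A and RPL37 were, however, below the median of all probe sets, 7.63. Their means also fell in the range of the leukocyte, endothelium and fibroblast markers, and no detection calls tell whether they stood above background.

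**Figure D1:**
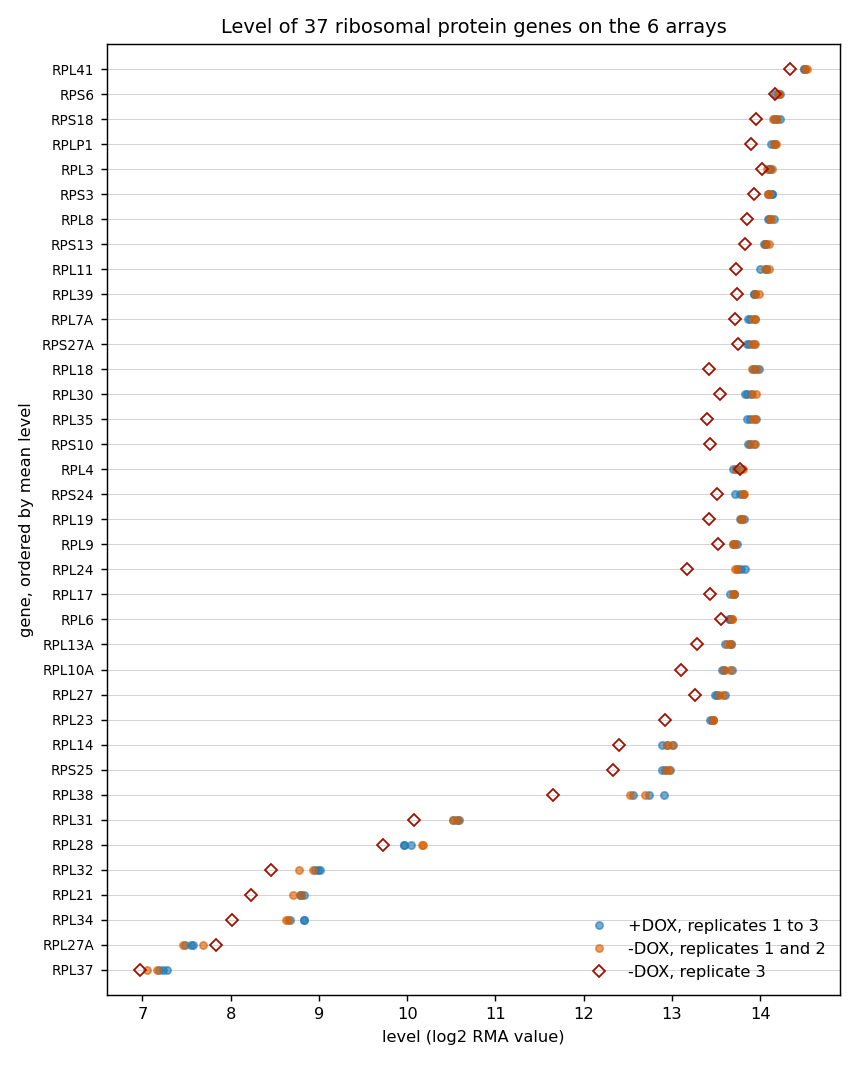
Level of 37 ribosomal protein genes (log2 RMA value, horizontal axis) on the 6 arrays, genes ordered by their mean. Blue points are the 3 arrays with doxycycline, orange points replicates 1 and 2 without it, and open diamonds replicate 3 without it, which lies lowest for 35 genes, with RPL4 and RPL27A as the others.

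The members shifted together on one array. Replicate 3 without doxycycline had the lowest of the 6 values for 39 of 41 members, while it was the lowest for 35.6% of all probe sets and the highest for 26.0% of them. It lay below the other 5 arrays by more than their whole range for 36 members, against 16.0% of all probe sets. In such bulk extracts, fewer cells with a transcript and less of it per cell cannot be told apart. Relative to each gene's own mean, the median over the members was 0.036, 0.026 and 0.072 log2 units for replicates 1, 2 and 3 with doxycycline, and 0.050, 0.059 and -0.25 for replicates 1, 2 and 3 without. Over all probe sets these medians lay between -0.015 and 0.020. Set against the mean of the other 5 arrays, replicate 3 was lower by a median of 1.23-fold (-0.30 log2 units), with members from -1.03 for RPL38 to 0.29 for RPL27A. The other 5 arrays agreed closely: a member's range over them had a median of 0.084 log2 units and a highest value of 0.39.

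**Figure D2:**
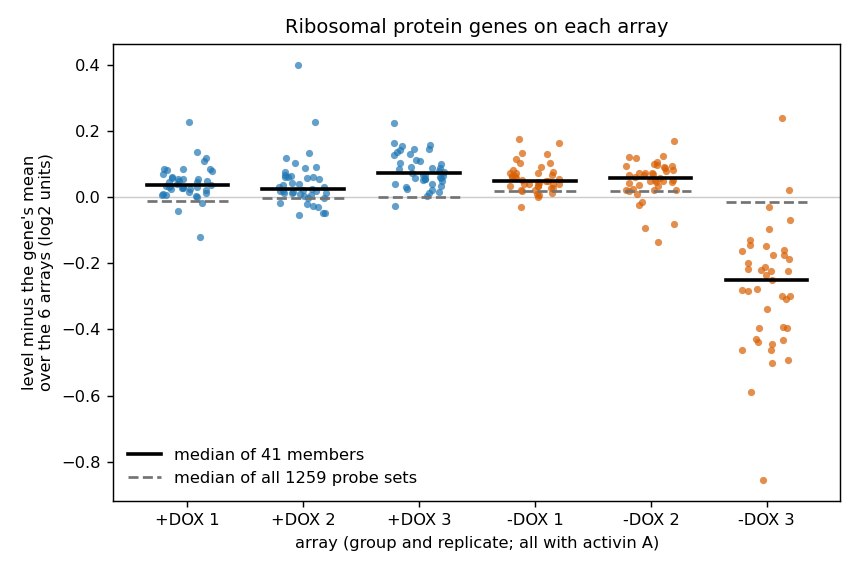
Each point is one of the 41 ribosomal protein genes, plotted as its level on an array minus its own mean over the 6 arrays (log2 units). Black bars are the medians of the members and dashed grey bars those of all 1259 probe sets; the member median is -0.25 on replicate 3 without doxycycline and between 0.026 and 0.072 on the other arrays.

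How large this shift was depended on the scaling. With each array centred on its median, the count was again 39 of 41, against 32.9% of all probe sets, and the median against the other 5 arrays was -0.29. After a further quantile normalization of the deposited table, 32 members and 33.0% of all probe sets had their lowest value on that array, and the members' median was -0.16, a 1.11-fold lower level. The direction over the members was the same under all 3 scalings. The 27 probe sets not matched to a member and with means above 13 lay on both sides of 0 on that array. Their median against the other arrays was 0.054, with 10 of them lowest there and 13 highest. The probe sets not matched to a member include those without a gene name, 190 without a RefSeq accession and 26 with one outside the gene table. Whether some of the unnamed ones measure ribosomal protein genes is unknown. The 31 members above 13 had a median of -0.27, the 3 between 12 and 13 one of -0.60 and the 7 below 11 one of -0.47. Across the 1043 probe sets with a gene span in RefSeq (introns counted), the 51 of the members among them, the deviation of that array correlated with span (Spearman 0.39). Probe sets of one array share a library and are not independent, and no value without the members was computed. The members' genes were short, with a median span of 4.80 kb against 21.6 kb for the other named probe sets. The part of gene span in the shift was not tested.

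**Figure D3:**
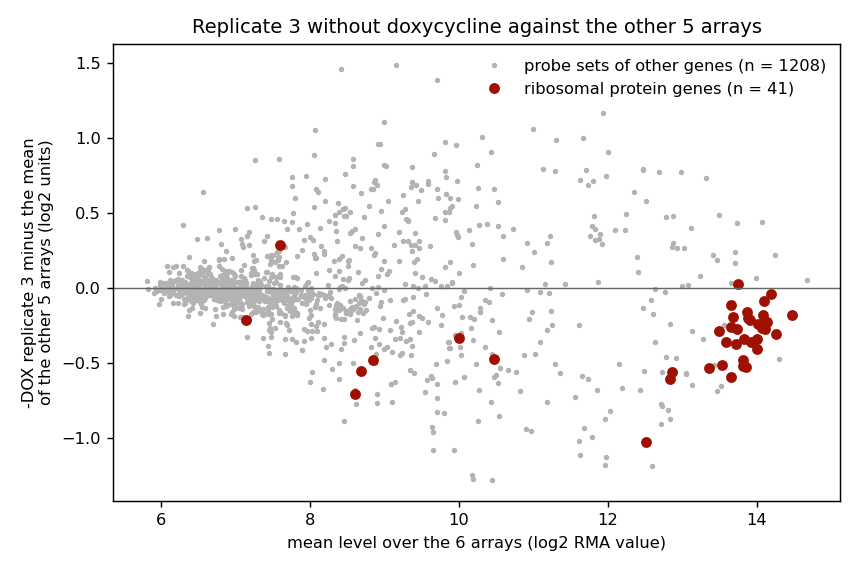
Replicate 3 without doxycycline minus the mean of the other 5 arrays (log2 units, vertical axis) against the mean level over the 6 arrays (log2 RMA value, horizontal axis). Red points are the 41 ribosomal protein genes and grey points the 1208 probe sets not matched to a member, some of them without a gene name. Bright grey points lie on both sides of 0, with a median of 0.054 above a level of 13, whereas 39 red points lie below 0.

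In the large subunit, the genes for proteins of its core and exit tunnel showed the shift to unequal degrees, on probe sets of unequal brightness. Whether such sizes differ by gene or by probe set was not tested, here and for the members below. RPL3, which reaches towards the peptidyl transferase centre, read 14.11, 14.11 and 14.09 with doxycycline and 14.13, 14.08 and 14.02 without, a shift of -0.082 on replicate 3 without doxycycline against the other arrays. RPL4, which lines the tunnel, read 13.73, 13.70 and 13.76 with doxycycline and 13.81, 13.73 and 13.77 without. It was 1 of the 2 members not lowest on that array, where its value lay inside the range of the other 5. RPL39, a small protein of the tunnel, and RPL17, in its wall and at its exit, were shifted by -0.21 and -0.25. Also near the exit, RPL35, which helps dock the signal recognition particle, was shifted by -0.52, and RPL31 by -0.47. RPL8, close to the catalytic centre, was at -0.26.

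The stalk and interface proteins were lowest on the same array. RPLP1, an acidic protein of the stalk that recruits elongation factors, read 14.16, 14.12 and 14.17 with doxycycline and 14.18, 14.16 and 13.89 without, with replicate 3 without doxycycline low and the other arrays within 0.059 log2 units of each other. RPL10A, of the stalk near the tRNA exit site, was shifted by -0.51. RPL24, which forms a bridge to the small subunit, read 13.78, 13.75 and 13.82 with doxycycline and 13.71, 13.73 and 13.17 without. All 3 of its arrays with doxycycline lay above the 3 without, but replicates 1 and 2 without doxycycline were close to them. RPL38, known from mice for a role in the translation of Hox messengers, read 12.74, 12.91 and 12.55 with doxycycline and 12.69, 12.52 and 11.66 without. Its value on replicate 3 was 2.04-fold lower than the mean of the other 5, the largest shift of any member, and its other arrays also spread over 0.39 log2 units.

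RPL11 and RPL23, which bind the p53 regulator MDM2 when ribosome assembly is disturbed, were both lowest on replicate 3 without doxycycline. RPL11 read 14.00, 14.06 and 14.07 with doxycycline and 14.10, 14.05 and 13.72 without, and RPL23 read 13.45, 13.43 and 13.47 with doxycycline and 13.47, 13.46 and 12.92 without. The 5 other arrays lay within 0.10 and 0.043 log2 units of each other, and the shifts were -0.34 and -0.53. RPL13A, also part of a complex that silences inflammatory messengers, was at -0.36, and RPL6, RPL7A, RPL9, RPL14, RPL18, RPL19, RPL27 and RPL30 lay between -0.56 and -0.11.

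Among the dim members of the large subunit, RPL34 read 8.67, 8.83 and 8.83 with doxycycline and 8.62, 8.65 and 8.01 without, and RPL32 read 8.99, 8.96 and 9.01 with doxycycline and 8.93, 8.78 and 8.46 without. For both genes the arrays with doxycycline lay above all of those without, with the lowest value on replicate 3. RPL21 was shifted by -0.55. RPL27A read 7.48, 7.55 and 7.57 with doxycycline and 7.69, 7.46 and 7.84 without, and was the only member with its highest value on replicate 3 without doxycycline. RPL28 read 9.96, 9.96 and 10.04 with doxycycline and 10.17, 10.18 and 9.73 without: replicates 1 and 2 without doxycycline were its highest arrays and replicate 3 its lowest.

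All 11 small subunit members had their lowest value on the same array, with a median shift of -0.26 against -0.34 for the 30 large subunit members. Their median levels also differed, 14.00 for the small and 13.65 for the large subunit, to which all members below 11 belong. The part of level in this contrast was not tested. RPS6, the substrate of the S6 kinases that act below mTOR, read 14.20, 14.16 and 14.22 with doxycycline and 14.20, 14.21 and 14.16 without. Its shift of -0.036 was smaller than the range of its other 5 arrays, 0.053. RPS25, needed for translation from some viral internal entry sites, read 12.92, 12.89 and 12.97 with doxycycline and 12.97, 12.93 and 12.33 without and had the largest shift of the small subunit, -0.60. RPS10, a site of ubiquitylation on collided ribosomes, was at -0.48.

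RPS18, of the subunit's head, was shifted by -0.23, RPS3, at the messenger entry, by -0.17, and RPS13 by -0.24. RPS24, mutated in Diamond-Blackfan anaemia, was at -0.27, and RPS27A, made as a fusion with ubiquitin, at -0.16. The 24 members with a TOP tract at an annotated start had a median shift of -0.34 and the 9 without one had -0.25. The ranges overlapped, from -1.03 to 0.29 with a tract and from -0.51 to 0.027 without. Which members count as having a tract depends on the annotated start, and the part of the tract in the shift was not tested.

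More than 1 probe set was present for 9 genes, 19 in all, which allows a look at the same gene through different probes. Each of the 19 was lowest on replicate 3 without doxycycline. The size differed within most of these genes, given here with the brighter probe set first. For RPL23 the 2 probe sets were shifted by -0.53 and -0.94, and for RPL13A by -0.36 and -0.52. RPS6 gave -0.036 and -0.090, and RPS27A -0.16 and -0.32. RPS3, by contrast, gave -0.17 and -0.18. For RPL31 the dimmer probe set was shifted less, with -0.47 and -0.36. The part of probe set brightness in the size was not tested. Of the 41 probe sets chosen, 10 carry the array maker's suffix for probes that may cross-hybridize and 11 the one for probes shared by several transcripts, so signal from near-identical copies cannot be told apart there. With the other 20 members alone, a choice made after seeing the data, the median deviation of replicate 3 was -0.29 instead of -0.25.

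The question of the design is whether expression differs when the receptor gene is switched on. No sample received the drug without the inducible gene, so the drug and the receptor cannot be told apart. None of the 41 members passed (limma, Benjamini-Hochberg adjustment over 1259 probe sets, threshold 0.05; adjusted p from 0.562 to 0.992), and 0% of all probe sets did. At an unadjusted p under 0.05 there was 1 member, RPL37, with a higher value with doxycycline, where 3.26% of all probe sets were higher and 4.53% lower at that level. The differences were small and mostly of one sign: 38 members had a higher mean with doxycycline and 3 a lower one, against 45.4% of all probe sets higher. After a further quantile normalization 31 of the 41 were higher. The median difference of the members in the deposited values was 0.086 log2 units, against -0.0081 for all probe sets, and they ran from -0.13 for RPL27A to 0.45 for RPL38. In 6 members the groups were separated, with all 3 arrays with doxycycline above all 3 without, RPL24, RPL32, RPL34 and RPL37 among them, and none the reverse, where 7.55% of all probe sets were separated upward and 8.26% downward.

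Most of these differences rest on replicate 3 without doxycycline. Without it 14 members (34.1%) were higher and 27 lower, against 38.2% of all probe sets higher. The members' median was then -0.012, against -0.017 for all probe sets, and 36 of the 41 lay within 0.1 log2 units of 0. The sign turned for 24 members and the difference shrank by over 1.5 times for another 14. It stayed within 1.5 times for 2, RPL4 and RPL37, and grew by over 1.5 times for 1, RPL28. Again none passed (limma, adjusted p from 0.208 to 0.996), and 0% of all probe sets did. The 95% confidence interval of a member reached a median of 0.24 log2 units to either side with all arrays and 0.10 without that array. Differences below about these sizes could not be told from 0 even without adjustment. The adjusted threshold needs larger ones. The median SD of a member was 0.19 among the 3 arrays without doxycycline and 0.036 among the 3 with it. Over all probe sets these medians were 0.090 and 0.046. The fit uses 1 variance per probe set for both groups, so its intervals and p-values over all arrays are only approximate for the members.

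**Figure D4:**
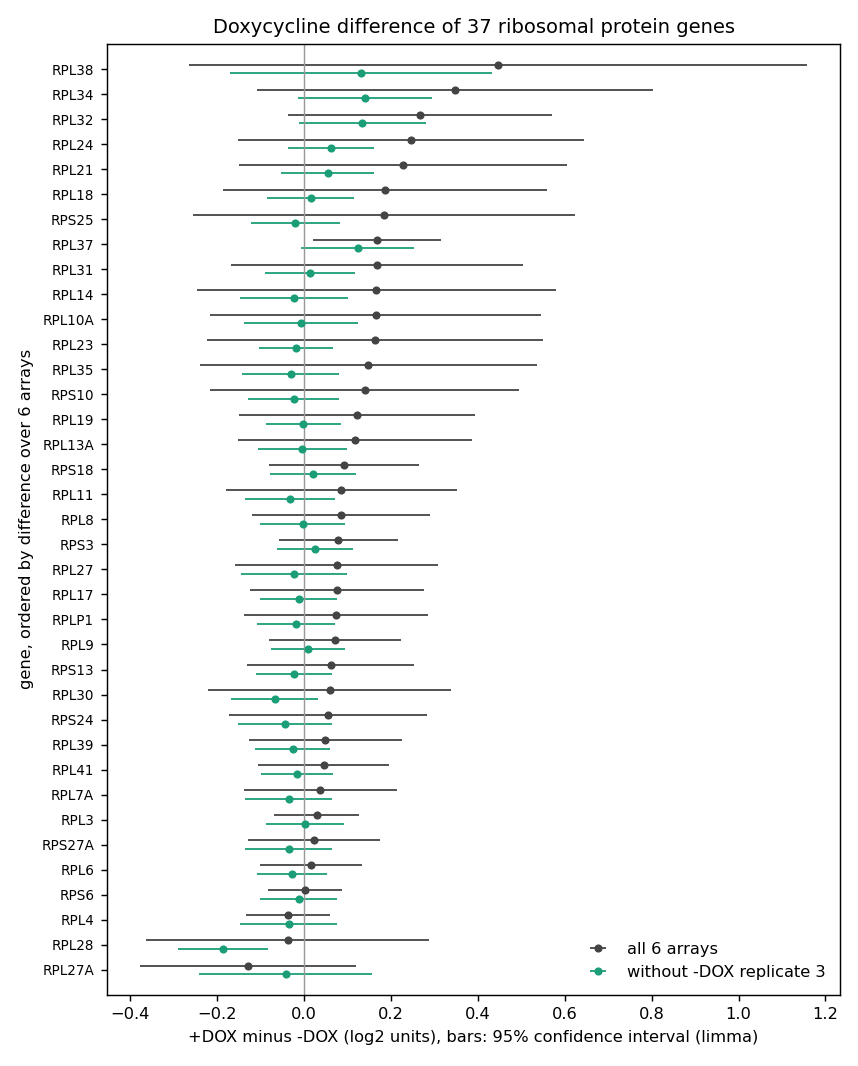
Difference with minus without doxycycline for 37 ribosomal protein genes (log2 units), with 95% confidence intervals from limma, over all 6 arrays (grey) and without replicate 3 of the -DOX group (green). The grey points run from -0.13 to 0.45, most of them above 0, and most of the green ones lie closer to 0, mostly with narrower intervals; RPL28 is among those farther from 0.

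Among the members with the smallest p-values were RPL37, RPL32 and RPL34. RPL37 was at 7.23 ± 0.047 (SD, n = 3) in +DOX and 7.06 ± 0.094 (SD, n = 3) in -DOX cells, a difference of 0.17 (SE 0.059; limma, adjusted p = 0.562; exact permutation p = 0.1, the smallest that 3 arrays against 3 can give). Without replicate 3 it was at 0.12 (limma, adjusted p = 0.514). RPL32 was at 8.99 ± 0.028 (SD, n = 3) in +DOX and 8.72 ± 0.24 (SD, n = 3) in -DOX cells, a difference of 0.27 (SE 0.12; limma, adjusted p = 0.675), and 0.13 without that array. RPL34 differed by 0.35 (SE 0.18; limma, adjusted p = 0.692), and by 0.14 without it. These 3 genes kept a higher mean with doxycycline when that array was left out, at a smaller size.

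The largest differences in each direction were those of RPL38 and RPL27A. RPL38 was at 12.73 ± 0.18 (SD, n = 3) in +DOX and 12.29 ± 0.55 (SD, n = 3) in -DOX cells, a difference of 0.45 (SE 0.29; limma, adjusted p = 0.71; 95% confidence interval -0.26 to 1.16), and 0.13 without replicate 3. RPL27A was at 7.53 ± 0.048 (SD, n = 3) in +DOX and 7.66 ± 0.19 (SD, n = 3) in -DOX cells, a difference of -0.13 (SE 0.10; limma, adjusted p = 0.73), and -0.043 without that array. RPL41, the member with the highest signal, differed by 0.045 (SE 0.060; limma, adjusted p = 0.795), and by -0.017 without it. RPS6 differed by 0.0019 (95% confidence interval -0.083 to 0.087), the narrowest interval of the members.

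RPL28 had the largest difference of the members once replicate 3 was left out. Over all arrays it was at 9.99 ± 0.045 (SD, n = 3) in +DOX and 10.03 ± 0.26 (SD, n = 3) in -DOX cells, a difference of -0.038. With replicate 3 left out the difference was -0.19 (SE 0.040; 95% confidence interval -0.29 to -0.083; limma, unadjusted p = 0.00563, adjusted p = 0.208). It was the only member with an unadjusted p under 0.05 in that comparison, where 4.29% of all probe sets were higher and 5.64% lower at that level. RPL28 was singled out after its values were seen.

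Other genes of translation, from a list of 57, were represented by 8. None passed (limma, adjusted p over all probe sets) and 0 had an unadjusted p under 0.05; 3 were higher with doxycycline and 5 lower, with a median difference of -0.12. The 3 higher were FAU, whose product includes a small subunit protein fused to a ubiquitin-like one, RACK1, a scaffold protein bound to the small subunit, and EIF3F, a subunit of an initiation factor. FAU read 13.58, 13.60 and 13.71 with doxycycline and 13.59, 13.63 and 12.97 without, and RACK1 read 13.78, 13.78 and 13.79 with doxycycline and 13.78, 13.78 and 13.53 without. Both were lowest on replicate 3 without doxycycline, like the members, by -0.65 and -0.26 against the other arrays, and EIF3F by -0.47.

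The elongation factor genes EEF1A1 and EEF2 and the initiation factor genes EIF3C, EIF3D and EIF4G2 had lower means with doxycycline. EEF1A1 read 9.17, 9.12 and 9.24 with doxycycline and 9.60, 9.08 and 10.05 without, with its highest value on replicate 3. EEF2 read 13.97, 13.86 and 13.96 with doxycycline and 14.08, 14.01 and 14.04 without, a difference of -0.11 (SE 0.046; limma, adjusted p = 0.636). On replicate 3 against the other arrays EEF1A1 was at 0.81, EIF4G2 at 0.77, EIF3C at 0.46, EIF3D at 0.21 and EEF2 at 0.066. So 3 of these 8 genes were lowest on that array and 4 highest. Of 22 common reference genes only GUSB, LDHA and HSP90AB1 were measured, at 0.065, 0.24 and 0.44 on that array, and none was lowest there.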

How the data were processed

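Total RNA from 6 samples (3 with and 3 without doxycycline) was labelled with biotin, from 0.5 micrograms, and measured on 1-colour arrays, per the labels' protocols. The deposited values are log2 expression. The submitters' processing notes name RMA without a version; it corrects background, quantile normalizes probes and summarises them by probe set. Further steps, a genome build and detection calls are not given in the sources used here, and no scanner file was analysed here. Names came from the RefSeq accession of a probe set, version dropped and looked up in the RefSeq gene table for GRCh38.p14: 1043 of 1259 had 1 symbol, 190 had no such accession and 26 an accession outside the table. Start-site sequences came from RefSeq on the same assembly.

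The 2 groups were set against each other by limma 3.58.1 under R 4.3.3 (lmFit, eBayes, group means, two-sided), with Benjamini-Hochberg adjustment over 1259 probe sets. The fit was tested on simulated data. Arrays are the replicates; their number limits the precision. The members, and the lists of other translation genes, reference genes and markers, were chosen with earlier results of these data known. A difference with SE and adjusted p was given for the 4 members of smallest p and those of highest and lowest level. The same was given for the largest difference in each direction. Other members appear by role. Counts and medians cover all 41 members; the values of 4 of them are not reported here, 1 of these among the 4 of smallest p, and the plots with gene names show the other 37. Alternatives covered normalization, a filter on dim probe sets, the variance model, array weights, a replicate block, each array left out, and the choice of probe set.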

Additional observations from a re-analysis of the deposited data

How the results depend on the processing

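No member passed the threshold under any alternative run. The median difference of the members was 0.086 as reported, 0.11 with arrays centred on their medians, 0.051 after a further quantile normalization and 0.012 with array weights, whose fit stopped before its tolerance was reached. Array weights brought the members with higher values from 38 to 25 and the probe sets past the threshold from 0 to 1, and the deviation of replicate 3 with doxycycline was 0.025 after the further quantile normalization. Leaving out 1 array at a time gave 14 to 39 members with higher values and a median of -0.012 to 0.14; both were lowest when replicate 3 of the -DOX group was dropped. The labels do not say whether the shared replicate numbers pair the arrays. Deviations from the group mean correlated at -0.15, -0.043 and -0.16 for same-numbered arrays and at -0.17 to 0.21 for the other pairings. With only 3 arrays per group, centred on their mean, these values cannot settle whether the arrays are paired. With a replicate block 38 members were higher, with a median of 0.086. Differences that turned sign had these log2 values. After the further quantile normalization they were RPL3 -0.016, RPL6 -0.022, RPL30 -0.0072, RPL39 -0.0061, RPS6 -0.0095, RPS24 -0.0045, RPS27A -0.0071. With array weights they were RPL3 -0.0066, RPL6 -0.019, RPL7A -0.014, RPL11 -0.038, RPL30 -0.028, RPLP1 -0.0042, RPS6 -0.0051, RPS24 -0.015, RPL14 -0.018, RPS27A -0.014, RPL35 -0.015, RPL41 -0.0094. With 1 array left out at a time, the lowest and highest values were RPS6 -0.013 to 0.017, RPL28 -0.19 to 0.038, RPL6 -0.028 to 0.037, RPL7A -0.035 to 0.080, RPL8 -0.0032 to 0.13, RPL11 -0.033 to 0.16, RPL23 -0.018 to 0.26, RPL19 -0.0013 to 0.19, RPL17 -0.012 to 0.12, RPL27 -0.024 to 0.14, RPL30 -0.067 to 0.13, RPL39 -0.026 to 0.098, RPLP1 -0.019 to 0.13, RPS10 -0.024 to 0.24, RPS13 -0.023 to 0.11, RPS24 -0.044 to 0.11, RPS25 -0.020 to 0.30, RPL14 -0.023 to 0.27, RPS27A -0.036 to 0.062, RPL10A -0.0080 to 0.27, RPL35 -0.031 to 0.24, RPL13A -0.0044 to 0.19, RPL41 -0.017 to 0.083. The array values hold no detection calls, so what signal over background limits is unknown.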
